A study of Mus musculus with 6 samples.

Results

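The chromatin contacts of the Pou5f1 promoter were followed in mouse embryonic stem cells by promoter-capture Micro-C, an assay that cuts crosslinked chromatin with micrococcal nuclease, ligates pieces that lie close together and enriches the ligated pieces for promoter fragments (baits). Members were the baits that meet the RefSeq body of Pou5f1 (chromosome 17, 35506032 to 35510777, plus strand, build mm10) extended by 2 kb. This rule took 1 of 19083 baits, 4360 bases long (chromosome 17, 35504898 to 35509257), which carries both RefSeq start sites of the gene, at 35506032 and 35508807. Every same-chromosome loop with that bait at either end, 24 listings in 6 libraries, and every entry of that bait in the authors' deposited comparison tables, 7 for Brg1KD and 8 for Ino80KD, is described here.

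The cells were E14 (E14TG2a), an established male mouse line that the labels call wild type, grown on gelatin in serum and LIF. All groups were transfected with esiRNA, short RNAs made by digesting a long double strand, and harvested after 48 h. In the Control group the esiRNA was directed against EGFP, in Brg1KD against Smarca4, which encodes Brg1, the ATPase of the esBAF remodeller, and in Ino80KD against Ino80, the ATPase of the INO80 remodeller. Each group had 2 libraries, and the labels number 3 batches: batch 1 holds the first replicate of all groups, batch 2 the remaining Control library, and batch 3 the remaining Brg1KD and Ino80KD libraries. No label ties the replicates to separate cultures, and p-values may then measure technical spread only. The libraries are DNA, and so neither the loss of Smarca4 and Ino80 RNA nor the cell type's marker genes could be read from them.

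Pou5f1 encodes Oct4, a POU-domain transcription factor that, with Sox2 and Nanog, holds embryonic stem cells in the pluripotent state. Its promoter region is known for a proximal and a distal enhancer, which lie closer to the start site than any loop end listed here. The gene sits in the major histocompatibility complex, among class I genes on its upstream side and the Tcf19, Psors1c2, Cdsn, Ddr1, Ier3, Flot1, Tubb5 and Mdc1 genes on its downstream side.

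A sequence from the bait and the promoters of 2 genes named in the contacts below are shown as the 250 bases before a RefSeq start site (GRCm38.p6, the assembly of mm10), 5′ to 3′ on the gene's strand. The first is the first start site of Pou5f1 (chr17:35505782-35506031, plus strand), the second Tcf19, on the neighbouring bait that contacts the same upstream fragment (chr17:35516825-35517074, minus strand), and the third Ier3, on a downstream bait listed in 2 libraries (chr17:35821463-35821712, plus strand).
Pou5f1: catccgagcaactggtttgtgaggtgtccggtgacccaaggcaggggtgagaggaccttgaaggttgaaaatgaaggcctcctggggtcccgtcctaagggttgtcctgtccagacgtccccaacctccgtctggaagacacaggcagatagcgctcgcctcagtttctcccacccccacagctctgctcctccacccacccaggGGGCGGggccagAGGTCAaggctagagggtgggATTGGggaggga
Tcf19: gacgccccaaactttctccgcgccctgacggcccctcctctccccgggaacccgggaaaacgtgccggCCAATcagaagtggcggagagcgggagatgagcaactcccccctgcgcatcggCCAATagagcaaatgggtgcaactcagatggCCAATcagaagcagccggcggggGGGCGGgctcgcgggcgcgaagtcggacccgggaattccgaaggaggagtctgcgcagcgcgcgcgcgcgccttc
Ier3: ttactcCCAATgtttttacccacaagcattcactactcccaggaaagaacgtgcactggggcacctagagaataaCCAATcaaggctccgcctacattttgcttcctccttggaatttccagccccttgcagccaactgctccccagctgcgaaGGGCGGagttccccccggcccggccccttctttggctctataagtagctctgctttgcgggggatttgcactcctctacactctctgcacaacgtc
Capitals mark the GC box GGGCGG, the nuclear receptor site AGGTCA and the CCAAT box, in capitals also where they stand reversed. Both strands were searched, and the TATA box TATAAA and the octamer ATGCAAAT, searched likewise, have no copy in these windows. No motif overlaps another here. In Pou5f1 the GC box begins 45 bases and the receptor site 33 bases before the start site, and a reversed CCAAT begins 12 bases before it. Tcf19 has 1 GC box and 3 copies of CCAAT, and Ier3 has 1 GC box and 2 copies of CCAAT, so all 3 windows shown hold both motifs while AGGTCA stands only in that of Pou5f1. The window before the second Pou5f1 start site (35508807), not shown, holds 1 CCAAT, no GC box and no AGGTCA. Of 32851 RefSeq promoter windows of this length, 32.7% hold GGGCGG, 33.8% CCAAT, 14.0% AGGTCA, 12.4% TATAAA and 1.60% the octamer ATGCAAAT, the letters of the classical POU-factor site. These are letter matches in a window and no measure of binding.

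A single fragment just upstream was the contact of the Pou5f1 bait that every library listed. It is 20 kb long (chromosome 17, 35480001 to 35500000), reaches from 26.0 to 6.03 kb upstream of the first start site, holds no RefSeq gene, and is separated from the bait by a gap of 4.90 kb. Its interaction score, the authors' own measure, listed from a minimum of 5, was 11.28 and 7.86 in the Control libraries. The score was 9.57 and 10.19 in the Brg1KD libraries and 8.77 and 11.98 in the Ino80KD libraries. The ranges of the 3 groups overlap, the Brg1KD pair lying inside the range of each other pair, and since each list was scored separately the scores were not tested between libraries.

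Within each list the upstream contact was the top-scoring Pou5f1 loop. It scored above 96.0% and 85.2% of all same-chromosome loops in the Control lists, 94.5% and 95.2% in the Brg1KD lists and 89.3% and 97.2% in the Ino80KD lists. Among the loops whose ends lie under 50 kb apart it still scored above 88.3% (Control replicate 2) to 98.4% (Ino80KD replicate 2). Listing in every library was uncommon in the series: by identical ends, 1546 of 49634 same-chromosome loops (3.11%) were in all 6 lists, and 1240 of 17305 baits with a loop (7.17%) had such a loop. The share among loops of like score or distance, or among baits of like loop number, was not counted.

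**Figure D1:**
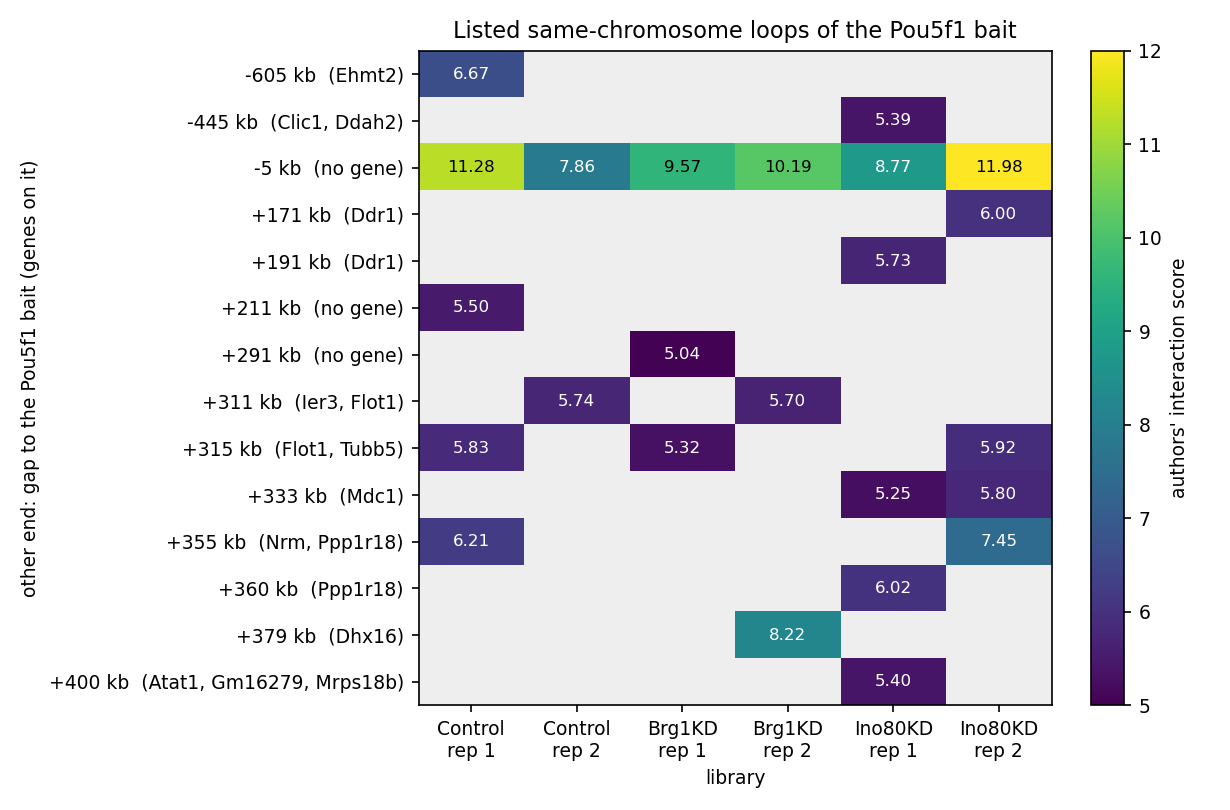
Listed same-chromosome loops of the Pou5f1 bait, 1 row for each of 14 other ends (gap to the bait in kb, below 0 upstream, with the genes on the end) and 1 column for each of 6 libraries. Colour and digits give the authors' interaction score, listed from a minimum of 5, and grey means not listed. The upstream fragment at a gap of 4.90 kb is filled in all 6 columns, at 7.86 to 11.98, and no other row in more than 3.

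The same fragment was also contacted by promoters on the far side of Pou5f1. The bait of Tcf19, a nuclear protein gene, and of its neighbour Cchcr1 (35515808 to 35517839) listed it in every library, with scores of 6.56 and 6.62 in Control, 5.79 and 5.91 in Brg1KD and 7.38 and 6.92 in Ino80KD. Each list was scored separately, so these scores too were not tested between libraries, and no order of the groups is read from them. The baits of Psors1c2 and Cdsn, 2 genes of the skin-barrier cluster next to Pou5f1, listed the fragment in 3 libraries each, Psors1c2 in Control replicate 2 and both Brg1KD libraries, and Cdsn in both Brg1KD libraries and Ino80KD replicate 2. Another 6 baits, among them those of Vars2, Gtf2h4, Ddr1, Tubb5 and Ppp1r18, listed it in 1 or 2 libraries. In all, 9 of the 67 other baits within 500 kb listed it at least once.

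**Figure D2:**
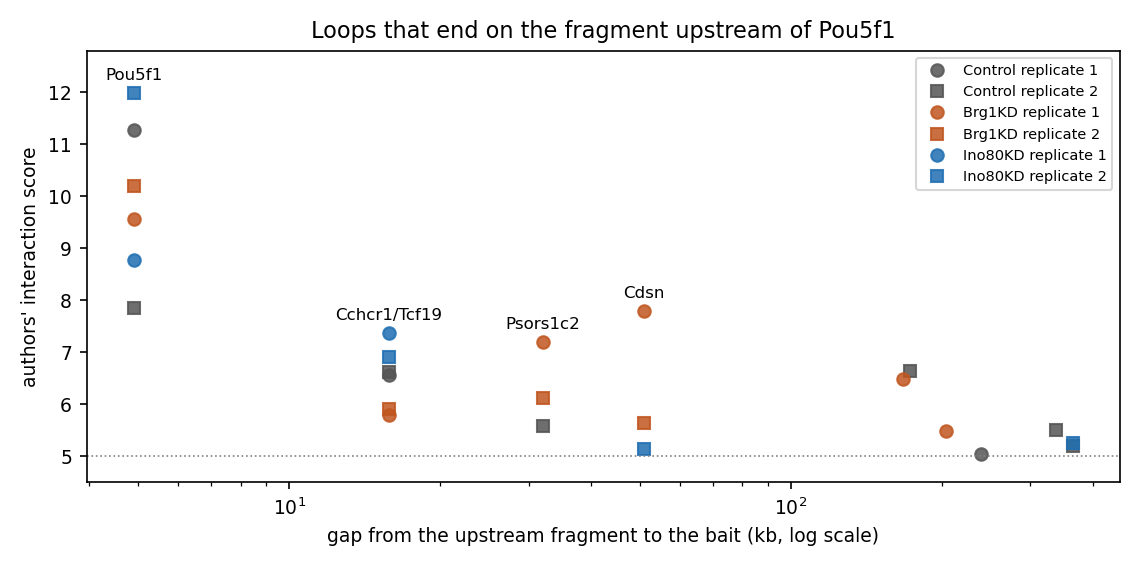
Authors' interaction score of each loop ending on the fragment upstream of Pou5f1, against the gap from that fragment to the other bait in kb (log axis), by library. The Pou5f1 bait at 4.90 kb and the Cchcr1 and Tcf19 bait at 15.8 kb have 6 points each, the other baits at most 3, and the dotted line is the minimum of 5.

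The remaining contacts were spread over 13 ends. Over all 14 ends, counted by identical position, 9 were in 1 library, 3 in 2, 1 in 3 and 1 in 6, and 7 of the 14 were themselves baits. How often contacts recurred depends on the distance allowed between ends: 5 of 14 were in more than 1 library by identical ends, 9 within 5 kb and 12 within 20 kb. There were 11 ends downstream and 3 upstream, and 0 loops joined Pou5f1 to another chromosome. A loop absent from a list has no score there and is not shown to be lost.

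Most of the distant listings fell in a stretch 250 to 450 kb downstream, from a fragment just before Ier3 to Atat1, with 13 of the 24 listings on 8 ends (distance classes here were drawn after seeing the loops). It had 2 and 1 listings in Control, 2 and 2 in Brg1KD and 3 and 3 in Ino80KD, so each library had at least 1 contact there. The Ier3 bait, which carries the promoter of a stress-induced survival gene and lies at a gap of 311 kb, was listed in Control replicate 2 (score 5.74) and Brg1KD replicate 2 (5.70). The adjoining fragment over Flot1, a lipid-raft protein gene, and Tubb5, a beta-tubulin gene, was listed in Control replicate 1 (5.83), Brg1KD replicate 1 (5.32) and Ino80KD replicate 2 (5.92), and is the only distant end seen in all 3 groups. These 2 ends touch each other, so each library except Ino80KD replicate 1 listed one or the other.

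Further along the stretch, the fragment over Mdc1, a DNA-damage mediator gene, was listed in both Ino80KD libraries, at 5.25 and 5.80, and in no library of the other groups. Those scores lie just above the minimum of 5, and the lists hold no value for the other libraries. The bait over Nrm, a nuclear envelope protein gene, and Ppp1r18, a phosphatase regulatory subunit gene, was listed in Control replicate 1 (6.21) and Ino80KD replicate 2 (7.45), and the fragment next to it in the body of Ppp1r18 in Ino80KD replicate 1 (6.02). A bait inside Dhx16, an RNA helicase gene, gave the highest score of any distant Pou5f1 loop, 8.22, in Brg1KD replicate 2 only. The bait over Atat1, the alpha-tubulin acetyltransferase gene, and over Mrps18b and Gm16279 was listed in Ino80KD replicate 1 only (5.4), and a fragment with no gene at a gap of 291 kb in Brg1KD replicate 1 only (5.04).

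Nearer to the gene, 150 to 250 kb downstream, 3 ends were listed once each. They were a fragment in the body of Ddr1, a collagen receptor kinase gene, in Ino80KD replicate 2 (6.0), the bait at a start site of Ddr1 in Ino80KD replicate 1 (5.73), and a fragment with no gene in Control replicate 1 (5.50). No Brg1KD library listed a contact in this stretch, and neither did Control replicate 2. On the upstream side, the bait of Ehmt2, the G9a histone methyltransferase gene, was listed at a gap of 605 kb in Control replicate 1 (6.67). The bait at the start site of Ddah2 was listed at a gap of 445 kb in Ino80KD replicate 1 (5.39). It also overlaps the body of Clic1, a chloride channel gene with a bait of its own.

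Most of these distant ends were contacted by many fragments of the region. The gene-free fragment that Pou5f1 listed once, in Brg1KD replicate 1, was contacted from 27 ends with 74 listings in the 6 libraries, and 24 of the 67 neighbouring baits listed it. The Nrm and Ppp1r18 bait was contacted from 25 ends with 52 listings, the Mdc1 fragment from 12 ends with 35 and the Ier3 bait from 13 ends with 28. The Ehmt2 bait had no other partner than Pou5f1 in the 6 lists. The upstream fragment was contacted from 10 ends with 25 listings, of which the 6 of Pou5f1 were the highest-scoring in their library.

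The number of Pou5f1 loops was high for a bait and varied as much between Control libraries as between groups. There were 5 and 2 loops in Control, 3 and 3 in Brg1KD and 6 and 5 in Ino80KD, and the total of 24 exceeds that of 97.9% of the 17305 baits with a loop, whose median is 3. High numbers were also found around it. Of the 67 other baits within 500 kb, 5 (Ino80KD replicate 1) to 39 (Control replicate 2) had more loops than Pou5f1 in a library. The highest total there was 156, at the Csnk2b, Gpank1 and Ly6g5b bait. Bait length was not taken into account. The lists that these come from held 16585 to 19045 loops, of which 12254 to 15322 were same-chromosome loops used as the denominator. The number of contact reads behind each loop is unknown.

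Per 1000 same-chromosome loops, Pou5f1 had 0.326 (95% Wilson interval 0.139 to 0.764) and 0.139 (0.0381 to 0.507) in the Control libraries. The Brg1KD libraries had 0.245 (0.0833 to 0.720) and 0.231 (0.0787 to 0.680), and the Ino80KD libraries 0.409 (0.187 to 0.892) and 0.354 (0.151 to 0.829). All 6 intervals, which cover counting error only, overlap one another. Both Brg1KD values lie between those of the Control libraries, and both Ino80KD values lie above the other 4.

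Brg1KD libraries held 0.238 ± 0.00946 (SD, n = 2) Pou5f1 loops per 1000 against 0.233 ± 0.132 in Control, a difference of 0.0055 (exact two-sided permutation p = 1.00). That difference is smaller than the spread between the Control libraries and turned to -0.0882 without Control replicate 2, to -0.0815 within batch 1, and to -0.0712 where batch and group were fitted together. No difference was detectable at this depth.

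Ino80KD libraries held 0.382 ± 0.0386 (SD, n = 2), 1.64 times the Control value, a difference of 0.149 with an exact two-sided permutation p of 0.33, the smallest that 2 against 2 libraries can give. Such a separation of both Ino80KD libraries above both Control libraries was seen at 10.3% of the 17305 baits with a loop, at 20.9% of the 1726 baits that had between 0.5 and 2 times the loops of Pou5f1, and at 15 of the 67 neighbouring baits (22.4%). Such a separation was thus common among baits of its loop number. The size rests on the Control libraries: the difference was 0.0552 without Control replicate 2 and 0.243 without Control replicate 1. It was 0.0825 within batch 1, and 0.0722 where batch and group were fitted together. In plain numbers the groups touch, since Control replicate 1 and Ino80KD replicate 2 both listed 5 loops (exact two-sided permutation p = 0.667).

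Against Brg1KD, Ino80KD libraries held 1.60 times as many Pou5f1 loops per 1000, a difference of 0.143 (exact two-sided permutation p = 0.33). Both Ino80KD libraries lay above both Brg1KD libraries, as they did at 7.81% of all baits with a loop and at 17.8% of the baits of similar loop number. Among the 67 neighbouring baits they lay above at 11 (16.4%) and below at 14 (20.9%). The contrast of Ino80KD with Brg1KD is balanced for batch. The Pou5f1 values were 0.409 against 0.245 within batch 1 and 0.354 against 0.231 within batch 3. Among loops scoring at least 7 the difference turned to -0.0949 per 1000 such loops in each list. Pou5f1 loops of that score were 9.57 in replicate 1 and 10.19 and 8.22 in replicate 2 of Brg1KD. In Ino80KD they were 8.77 in replicate 1 and 11.98 and 7.45 in replicate 2. Their number was thus the same in both depletions, and the sign comes from the lists' totals of such loops. Of all 24 Pou5f1 listings, 16 scored under 7, and the larger number in Ino80KD than in Brg1KD lies among these. After Benjamini-Hochberg adjustment over the 3 comparisons of loops per 1000, the p was 0.50 for both comparisons with Ino80KD and 1.00 for Brg1KD against Control.

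**Figure D3:**
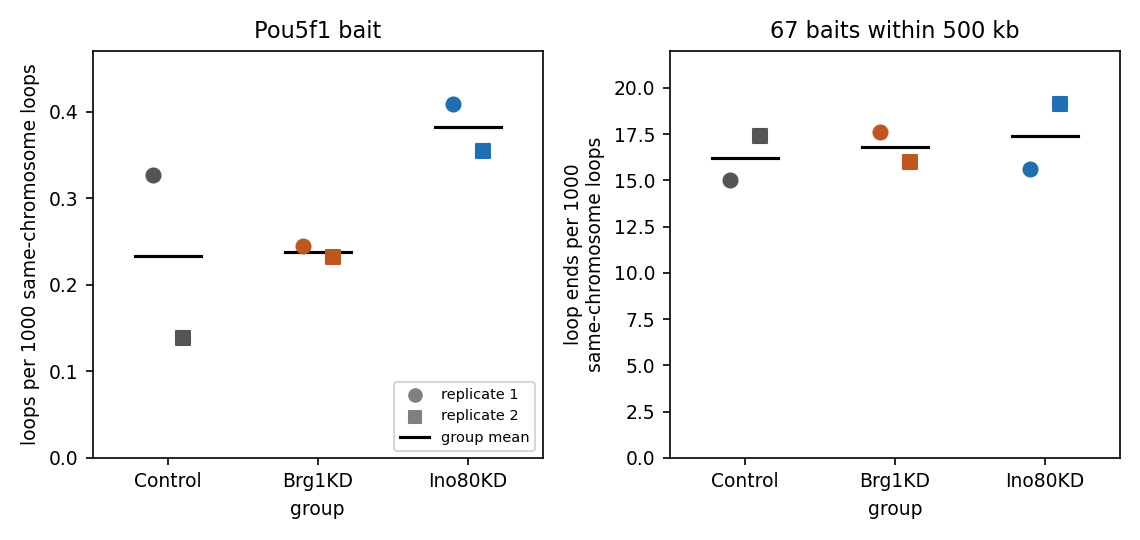
Left, Pou5f1 loops per 1000 same-chromosome loops in each library, and right, loop ends on the 67 other baits within 500 kb per 1000 same-chromosome loops. Circles are replicate 1, squares replicate 2 and lines group means: both Ino80KD points lie above the rest at Pou5f1 (0.409 and 0.354), while the neighbours of the 3 groups overlap (15.0 to 19.1).

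The authors' deposited tables give a second view, a log2 fold change of contact signal with its standard error for each bait and region, in which values above 0 stand for more contact after depletion. The header does not state that direction. It was read from the lists: of the loops that both Ino80KD lists and no Control list held, 86.3% were above 0 in the authors' deposited table, against 15.4% of those that both Control lists and no Ino80KD list held. The shares in the authors' deposited table for Brg1KD were 83.4% and 16.7%. Regions can overlap, and both tables use the same Control libraries.

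In Brg1KD no entry of the Pou5f1 bait moved beyond its error. Values ran from -0.24 to 0.31 in the authors' deposited table, with 4 of the 7 above 0 (48.7% of all entries are), with unadjusted p from 0.474 to 0.942 and an adjusted p of 1.00 throughout. Of these, 0 had an unadjusted p under 0.05, against 1.20% of all 33243 entries, of which 0 had an adjusted p under 0.05. The region that holds the upstream fragment (35439895 to 35500000, which also takes in H2-Q10, a class I gene) stood at -0.019 ± 0.19 (SE, p = 0.920) in the authors' deposited table, with a 95% interval of the fold from 0.764 to 1.28. Its mean signal there of 264 is above that of 97.5% of entries, so this is the best-measured Pou5f1 contact.

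Downstream, the lowest Brg1KD value in the authors' deposited table was -0.24 ± 0.38 (SE) at the region of the Ddr1 promoters (35699092 to 35771329). The highest in the authors' deposited table was 0.31 ± 0.43 at a region over Ppp1r18 and Dhx16 (35862058 to 35904947), which holds the Dhx16 bait listed in Brg1KD replicate 2. Both errors exceed the values. The inverse-variance weighted mean of the 7 values of the authors' deposited table was 0.0062 ± 0.12, above that of 53.2% of baits.

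In Ino80KD the entries lay mostly above 0 without passing a test. Of the 8 in the authors' deposited table, 7 are above 0, as are 50.4% of all 34774 entries, with unadjusted p from 0.199 to 0.970 and an adjusted p of 1.00 throughout. None (0 of 8) had an unadjusted p under 0.05, against 1.29% of all entries, of which again 0 had an adjusted p under 0.05. The upstream region had the smallest p and error, 0.24 ± 0.19 (SE, p = 0.199) in the authors' deposited table, a fold of 1.18 with a 95% interval from 0.916 to 1.52.

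The downstream values were of like size. The highest value in the authors' deposited table was 0.39 ± 0.35 (SE, p = 0.260) over Nrm, Ppp1r18 and Dhx16 (35842255 to 35898433). The Ddr1 promoter region stood at 0.34 ± 0.33 (p = 0.289) in the authors' deposited table, and a region that also takes in Vars2 and Gtf2h4, a valyl-tRNA synthetase gene and a TFIIH subunit gene, at 0.22 ± 0.33. The lowest was a region over Ier3, Tubb5 and Mdc1 (35771330 to 35842254), at -0.013 ± 0.35 in the authors' deposited table. The weighted mean over the 8 values of the authors' deposited table was 0.25 ± 0.11, above that of 87.0% of baits, with an error that is too small because regions overlap. Using 3 regions that do not overlap, the authors' deposited table gave 0.24 ± 0.14.

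In both tables each region of Pou5f1 holds at least 1 of its listed loop ends, so listings and fold changes come from the same contacts and are not separate support. For the 5 regions present in both, the values from the authors' deposited tables stand at -0.019 and 0.24 upstream, -0.24 and 0.34 at Ddr1, -0.094 and -0.013 at Ier3 to Mdc1, 0.029 and 0.14 at the longer region there, and 0.18 and 0.37 over Nrm and Ppp1r18, for Brg1KD and Ino80KD respectively. The difference between the depletions was not tested for single regions, since no values per library are in these tables.

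**Figure D4:**
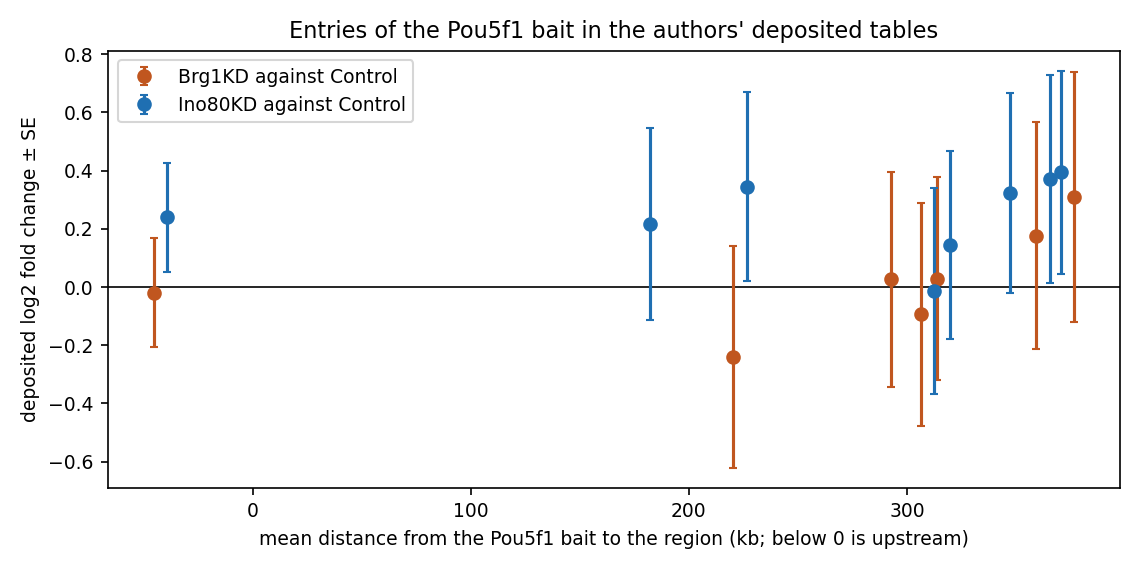
Log2 fold change ± SE from the authors' deposited tables for the 7 Brg1KD and 8 Ino80KD entries of the Pou5f1 bait, against the mean distance to the region in kb (points are set slightly apart sideways). Ino80KD values run from -0.013 to 0.39 and Brg1KD values from -0.24 to 0.31, with errors of 0.19 upstream and 0.32 or more downstream.

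Entries of other baits whose regions hold the Pou5f1 bait were looked up beyond the rule. In the authors' deposited table for Brg1KD there were 11 from 10 baits, 6 above 0, with a median of 0.033. The authors' deposited table for Ino80KD had 13 from 11 baits, 11 above 0, with a median of 0.18. Among the Ino80KD entries the Tcf19 and Cchcr1 bait had the lowest p in the authors' deposited table, 0.128 (0.30 ± 0.20), and among the Brg1KD entries the Cdsn bait, 0.282 (0.30 ± 0.28). The Ier3 bait stood in the authors' deposited tables at 0.057 ± 0.42 after Brg1 depletion and at 0.31 ± 0.38 after Ino80 depletion. All these regions also cover the upstream fragment. The Tcf19 and Cchcr1, Psors1c2 and Cdsn baits listed that fragment and had no listed loop with the Pou5f1 bait. The entries therefore cannot be read as contacts with Pou5f1 alone.

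In Ino80KD most neighbouring baits also lay above 0. Averaged per bait, 54 of 66 neighbouring baits with entries (81.8%) lay above 0 in the authors' deposited table for Ino80KD, against 48.5% of all baits, with a median of 0.15, and 12 of them exceeded Pou5f1. In the authors' deposited table for Brg1KD 40 of 67 (59.7%) lay above 0, against 47.8% of all baits, with a median of 0.027. Neighbouring baits share regions and contacts and are not independent.

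Among the neighbours, the authors' deposited table had as its highest Ino80KD means Clic1 at 0.49 ± 0.23 (SE), Apom, an apolipoprotein gene, at 0.34 ± 0.075, and Lst1, a leukocyte gene, at 0.33 ± 0.13. The lowest there were the class I genes H2-Q2 at -0.20 ± 0.12 and H2-Q1 at -0.14 ± 0.23, with a bait named by no gene end at -0.15 ± 0.20. The Clic1 bait meant here (35049346 to 35050705) is not the Ddah2 bait that Pou5f1 contacted. The highest in the authors' deposited table for Brg1KD were Clic1 at 0.36 ± 0.40, Abcf1, an ABC protein gene of translation, at 0.34 ± 0.18 and Mucl3 at 0.28 ± 0.10. The lowest there were Mdc1 at -0.85 ± 0.42, Abhd16a, a lipid hydrolase gene, at -0.65 ± 0.39, and the Mrps18b and Ppp1r10 bait at -0.50 ± 0.25. These 3 rest on 1, 2 and 2 entries, and the Clic1 value for Brg1KD on 1. The Mdc1 bait and the Mrps18b and Ppp1r10 bait had loops in Control and none in Brg1KD. This Mdc1 bait (35840395 to 35842254) is not the Mdc1 fragment that Pou5f1 contacted. Pou5f1, at 0.0062 and 0.25, lay inside the range of its neighbours in both tables.

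**Figure D5:**
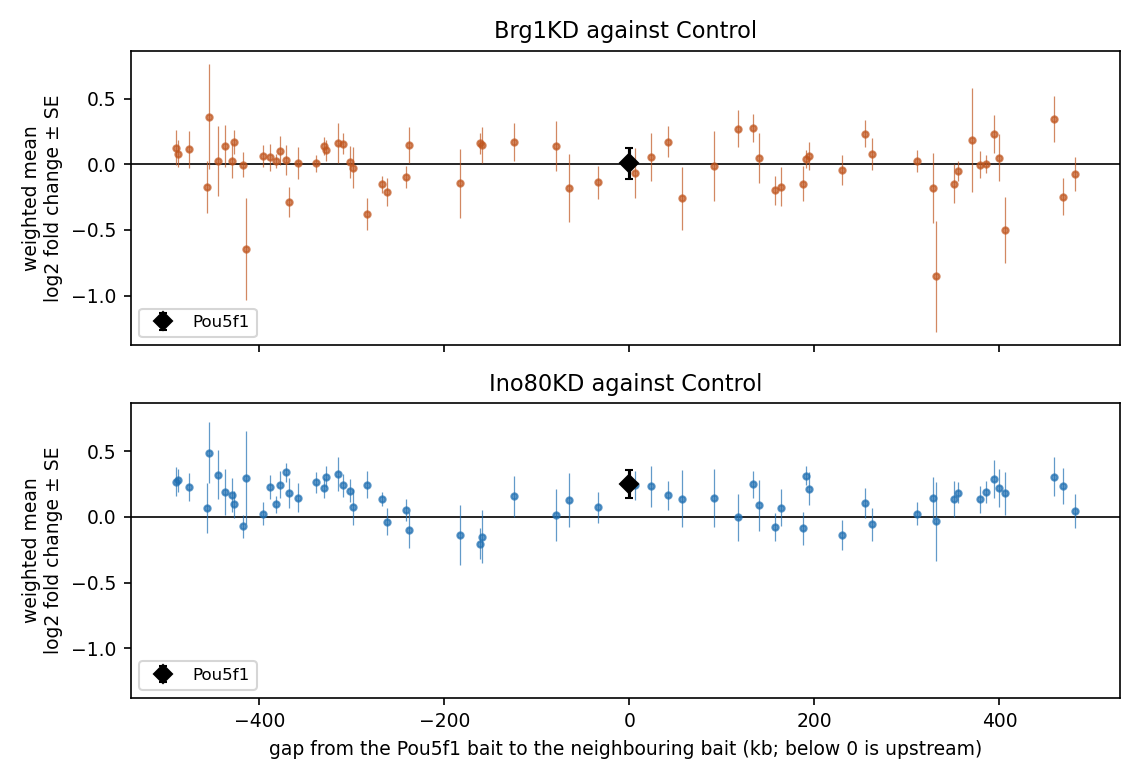
Weighted mean log2 fold change ± SE per bait from the authors' deposited tables, for Brg1KD (top) and Ino80KD (bottom), against the gap from the Pou5f1 bait in kb. Pou5f1 is the black diamond, at 0.0062 and 0.25, and 40 of 67 neighbours lie above 0 in Brg1KD and 54 of 66 in Ino80KD.

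The loop numbers of the neighbours did not separate the groups. Loop ends on the 67 baits made up 15.0 and 17.4 per 1000 in Control, 17.6 and 16.0 in Brg1KD and 15.6 and 19.1 in Ino80KD. The exact two-sided permutation p was 0.667, 0.667 and 1.00 for Brg1KD against Control, Ino80KD against Control and Ino80KD against Brg1KD, each 1.00 after Benjamini-Hochberg adjustment over the 3. Within the neighbourhood Pou5f1 stood high in Ino80KD replicate 1, where 5 neighbours had more loops, and low in Control replicate 2, where 39 had more.

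Set against 30 other genes of the pluripotency network, a list chosen with earlier results of these data known, Pou5f1 had the most loops among those with a bait. A bait was found for 22 of the 30 and a loop for 20. None of the 22 genes with a bait exceeded the 24 loops of Pou5f1, their median total is 2, and only Nanog, the homeodomain partner of Oct4, also had a loop listed in every library. Nanog had 1 and 2 loops in Control, 3 and 1 in Brg1KD and 9 and 3 in Ino80KD, so its excess in Ino80KD lay mainly in replicate 1.

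In the authors' deposited table for Ino80KD 11 of 17 network genes with entries had a mean above 0 (all baits: 48.5%), with a median of 0.18, close to the 0.25 of Pou5f1. Of their 37 entries in the authors' deposited table, 2 were higher and 0 lower at an unadjusted p under 0.05 (all entries: 0.912% and 0.382%), both at Stat3, the LIF signal transducer. The highest means in the authors' deposited table were Tbx3, a T-box factor, at 0.84 ± 0.36 (SE), Dppa4, a chromatin protein gene of early development, at 0.47 ± 0.38, and Stat3 at 0.42. The lowest there were Utf1, a chromatin-bound factor, at -0.61 ± 0.48, Dppa2, the partner of Dppa4, at -0.38 ± 0.19 and Trim28, a corepressor, at -0.17 ± 0.43. Nanog stood at 0.20 ± 0.094 and Sox2 at 0.14 ± 0.14 in the authors' deposited table.

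In Brg1KD fewer of the list's means lay above 0. Of 15 network genes in the authors' deposited table, 4 were above 0 and 11 below (all baits: 47.8% above 0), with a median of -0.27, while Pou5f1 stood at 0.0062. Of 27 entries in the authors' deposited table, 1 was lower and 0 higher at an unadjusted p under 0.05 (all entries: 0.827% and 0.373%), that of Klf2, a Krüppel-like factor, at -0.52 ± 0.22 (SE). Zfp42 (Rex1) was also low in the authors' deposited table, at -0.62 ± 0.40, and the highest were Myc at 0.30 ± 0.42, Stat3 at 0.17 ± 0.15 and Sall4 at 0.16 ± 0.096. No entry of the list had an adjusted p under 0.05 in either of the authors' deposited tables, and the difference between Pou5f1 and the list was not tested.

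Among the baits whose loop numbers lay nearest to those of Pou5f1 over the 6 libraries, by the sum of absolute differences in loops per 1000, were Arhgap45 at 0.227, Ahnak at 0.267, the Prpf31 and Tfpt bait at 0.274 and Rnf39, a RING finger gene on chromosome 17, at 0.279. Arhgap45 had 5 and 2 loops in Control, 4 and 2 in Brg1KD and 5 and 5 in Ino80KD. Its Pearson r with Pou5f1 was 0.83 over 6 libraries, for a bait chosen by likeness among 17305 and over libraries that share list length, so it carries no p.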

How the data were processed

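Per the file headers and their values, the authors deposited for each of 6 libraries a list of loops with a start and end for both fragments and an interaction score of at least 5. Not given in the sources used here is the loop caller. The build mm10 and the use of bedtools come from the submitters' processing notes. Per the file headers, the authors' deposited table of each comparison holds a mean normalized signal, a log2 fold change with its standard error, a statistic (a score, which is that fold change divided by that error), and a p-value before and after adjustment. No counts per library were used here and the depth of contacts is unknown.

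Same-chromosome loops of the Pou5f1 bait were counted by identical ends and divided by a library's same-chromosome loops, leaving out 1 bait (chromosome 2, 98661117 to 98662976). Exact two-sided permutation tests compared the values per library, and shares were given 95% Wilson intervals. Entries of a bait in the authors' deposited tables were averaged, each weighted by the inverse of its squared error. Genes and promoter sequences come from RefSeq (GRCm38.p6). Named are the genes at the other ends of Pou5f1 loops, the 3 highest and 3 lowest means of the neighbour and pluripotency lists, and the 5 baits nearest in loops per 1000. Some items that this rule names are not reported here. Members and lists were chosen with earlier results of these data known. Counting and averaging were tested on simulated data. The simulated entries of a bait were independent, so the errors of means over overlapping regions were not covered. By the labels, first replicates share batch 1 and second replicates only partly share a batch, so replicate numbers pair libraries only in part. Python 3.11.15, pandas 2.3.3, numpy 2.4.6 and scipy 1.17.1 were used.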

Additional observations from a re-analysis of the deposited data

Results flagged for a closer look

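The 3′ end of Pou5f1 lies on a neighbouring fragment that is not a bait (chromosome 17, 35509258 to 35515807), so that loops ending on it are not among the Pou5f1 loops counted above. They do enter the list totals and the values of neighbouring baits, some of whose regions in the deposited tables cover this fragment. In the depletion libraries, 2 of Brg1KD and 2 of Ino80KD, 2 loops ended on it, and in the 2 Control libraries 0 did. The fragment was flagged because the Control libraries had 0. How often other fragments show such a contrast was not counted. The 2 loops came from the Tubb5 bait in Brg1KD replicate 1, at a score of 5.05, and from the Nrm bait in Ino80KD replicate 2, at a score of 5.45, both just above the minimum of 5. The difference was not tested.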

How the results depend on the processing

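Brg1KD against Control had no settled sign. From 0.0055 loops per 1000 it turned to -0.0172 with a window of 10 kb around the gene, -0.0043 counting loops by their bait end only, -0.0065 with interchromosomal loops added, -0.5 as a plain number of loops, -0.0815 within batch 1, -0.0712 with batch and group fitted together, and -0.614 per 1000 loop ends on baits within 500 kb (an alternative chosen after seeing the data). For scores of at least 7 the difference was 0.236 per 1000 such loops, and leaving out 1 library gave -0.0882 to 0.0992. The sign turned in 9 of 14 alternatives and stayed in 5. Ino80KD stayed above Control in all 14 alternatives, at 0.0552 to 0.243 per 1000 without 1 library. It stayed above Brg1KD in 13 of 14, at 0.116 to 0.171 without 1 library. For scores of at least 7 that difference turned to -0.0949, with the same numbers of Pou5f1 loops in both depletions. The causes of the shifts were not tested. Not all of these alternatives could move the value. The window without extension takes the same bait, and the replicate block gives the same mean difference. For Ino80KD against Brg1KD, fitting batch and group together also returned 0.143. Loop ends listed in more than 1 library numbered 5 by identical ends, 9 within 5 kb and 12 within 20 kb. Means of the authors' deposited tables moved by less than their error under 6 alternatives each (from -0.019 to 0.027 in Brg1KD and 0.24 to 0.28 in Ino80KD), and the medians of the pluripotency list changed by under 0.05 with medians over a gene's entries. With the replicate number as a block, the differences were 0.0055 for Brg1KD and 0.149 for Ino80KD against Control and 0.143 between the depletions, and an exact permutation of signs over 2 pairs cannot go under p = 0.5. The pairing changed no call. The 2 to 6 loops per library limit every comparison.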
